A study of Mus musculus with 16 samples.

Results

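The 34 genes described here encode the constitutive proteasome. Their RNA was measured in 16 libraries, all made from subcutaneous grafts of MC38, a colon carcinoma line of the mouse. The members were chosen by symbol alone, as Psma1 to Psma7, Psmb1 to Psmb7, Psmc1 to Psmc6 and Psmd1 to Psmd14, and all 34 were found among the 18480 entries of each library. The interferon-induced subunits Psmb8, Psmb9 and Psmb10 and the activator genes Psme1 and Psme2 are not members and serve as a comparison. The labels give 4 libraries each of exercise with anti-PDL1, called the combination here, of anti-PDL1 alone, of exercise alone and of control. All 4 groups share the same grafted line. The strain, age and sex of the mice, the kind and length of exercise and the dose of the antibody are not stated in the labels. They do not say whether each library stands for a different mouse either. The p-values below therefore rest on the spread among these samples alone, and that spread may be technical.

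The proteasome is the protease that degrades proteins tagged with ubiquitin. Its barrel-shaped core particle, the 20S particle, is built of outer rings of alpha subunits, which form the gate, and inner rings of beta subunits, of which Psmb5, Psmb6 and Psmb7 carry the active sites. The 19S regulatory particle caps the core: its ATPases, Psmc1 to Psmc6, unfold the substrate, and its non-ATPase subunits bind ubiquitin and cut it off. In cells exposed to interferon gamma, Psmb8, Psmb9 and Psmb10 replace Psmb5, Psmb6 and Psmb7 in newly assembled cores, giving the immunoproteasome, which is known for shaping the peptides that tumours show to T cells.

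The promoters of 5 genes on which the comparisons turn are shown, as the 250 bases before the start of transcription in the RefSeq promoter table of GRCm38.p6. Psmc6, Psmd14 and Psma1 had the smallest p among the members in exercise against control, and Psmb5 and Psmb8 are the constitutive and the interferon-induced form of one active site. Capitals mark matches, on either strand, to the letters TGANNNNGC (core of the antioxidant response element, bound by NRF1 and NRF2), CCAAT (the CCAAT box), TTCNNNGAA (the interferon gamma activated site) or the interferon-stimulated response element, searched as GAAA, any 2 bases and GAAA.
Psmc6, chr14:45329574-45329823, plus strand: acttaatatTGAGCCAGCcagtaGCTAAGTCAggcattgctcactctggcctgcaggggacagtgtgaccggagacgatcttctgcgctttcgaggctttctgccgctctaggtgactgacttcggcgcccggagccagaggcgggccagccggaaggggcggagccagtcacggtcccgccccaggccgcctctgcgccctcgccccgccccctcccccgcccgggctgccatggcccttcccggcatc
Psmd14, chr2:61711444-61711693, plus strand: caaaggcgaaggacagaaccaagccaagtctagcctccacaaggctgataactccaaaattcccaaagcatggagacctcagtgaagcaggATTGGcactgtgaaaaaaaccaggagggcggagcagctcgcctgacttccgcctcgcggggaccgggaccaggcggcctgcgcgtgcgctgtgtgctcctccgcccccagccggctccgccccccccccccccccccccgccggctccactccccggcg
Psma1, chr7:114276117-114276366, minus strand: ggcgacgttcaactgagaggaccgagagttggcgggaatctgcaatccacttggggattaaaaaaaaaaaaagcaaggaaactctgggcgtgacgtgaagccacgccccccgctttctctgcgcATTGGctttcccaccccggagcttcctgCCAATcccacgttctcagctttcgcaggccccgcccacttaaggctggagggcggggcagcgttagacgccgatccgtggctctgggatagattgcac
Psmb5, chr14:54617996-54618245, minus strand: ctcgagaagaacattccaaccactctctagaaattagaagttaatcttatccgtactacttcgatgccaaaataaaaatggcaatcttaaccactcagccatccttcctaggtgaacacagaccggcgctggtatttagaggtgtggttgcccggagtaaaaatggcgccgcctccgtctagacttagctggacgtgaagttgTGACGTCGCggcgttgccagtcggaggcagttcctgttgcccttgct
Psmb8, chr17:34197945-34198194, plus strand: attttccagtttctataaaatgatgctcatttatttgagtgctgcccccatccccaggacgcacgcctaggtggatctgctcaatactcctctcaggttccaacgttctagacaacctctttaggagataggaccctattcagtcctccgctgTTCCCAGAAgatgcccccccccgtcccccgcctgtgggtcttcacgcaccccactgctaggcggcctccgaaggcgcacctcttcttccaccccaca
Of the 34 members, 28 had an entry in the promoter table, and Psmb1, Psmb2, Psmb7, Psmc3, Psmd3 and Psmd7 had none. TGANNNNGC lay in 11 of the 28 windows (39.3%), against 35.2% of all 32851 windows in the table, and CCAAT lay in 11 (39.3%), against 33.9% of all windows. TTCNNNGAA lay in 0 of the 28 and in 7.02% of all windows. The Psmb8 window held 1 match to it, which began 97 bases before the start, while Psmb9 and Psme2 had windows without a match. The interferon-stimulated response element lay in 3 member windows, those of Psmb3, Psmd4 and Psmd9 (10.7%), and in 2.98% of all windows. It was absent from the windows of the induced genes Psmb8, Psmb9 and Psme2. The 34 genes lie on 15 chromosomes, with at most 6 on 1 chromosome, chromosome 11. Psmb8 (chr17:34198195-34201454) and Psmb9 (chr17:34182030-34187330) lie close together. No match shown overlaps a match to another of these motifs. A match is a run of letters and was not tested as a binding site.

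All 34 members were expressed in every library, at 1 FPKM or more throughout, and 29 of them averaged above 50 FPKM (fragments per kilobase, normalised to the depth of each library, as deposited). The median member averaged 76.3 FPKM over the 16 libraries, and the mean levels had a median percentile of 92.3 among the 11868 genes tested. Beta subunits of the core stood highest, with Psmb1 at 168 FPKM and Psmb3 at 163 FPKM on average. The beta subunits ran from Psmb5 at 63.0 to Psmb1, with a median of 131 FPKM, while the alpha subunits ran from Psma5 at 63.7 to Psma7 at 120 FPKM, with a median of 84.2. The 6 ATPases lay closest together, between Psmc6 at 61.4 and Psmc1 at 87.5 FPKM. The 11 non-ATPase subunits were the most unequal, from Psmd13 at 31.1 to Psmd7 at 152 FPKM, Psmd7 being the partner of the deubiquitinase Psmd14. Psmd10 and Psmd9 were the lowest members, at 12.1 and 10.7 FPKM. Both, with Psmd5 at 34.9 FPKM, are chaperones that assemble the base of the 19S particle and are not part of the finished proteasome. The RefSeq annotation of GRCm38.p6 lists 6 pseudogenes under a member's own symbol with the ending ps, of Psma5, Psmb5, Psmb6 and Psmb7. Pseudogenes under other names were not searched for. How reads shared with such copies were counted is not given in the sources used here. The levels of these 4 members, and of any other member with such copies, are uncertain to that extent.

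**Figure D1:**
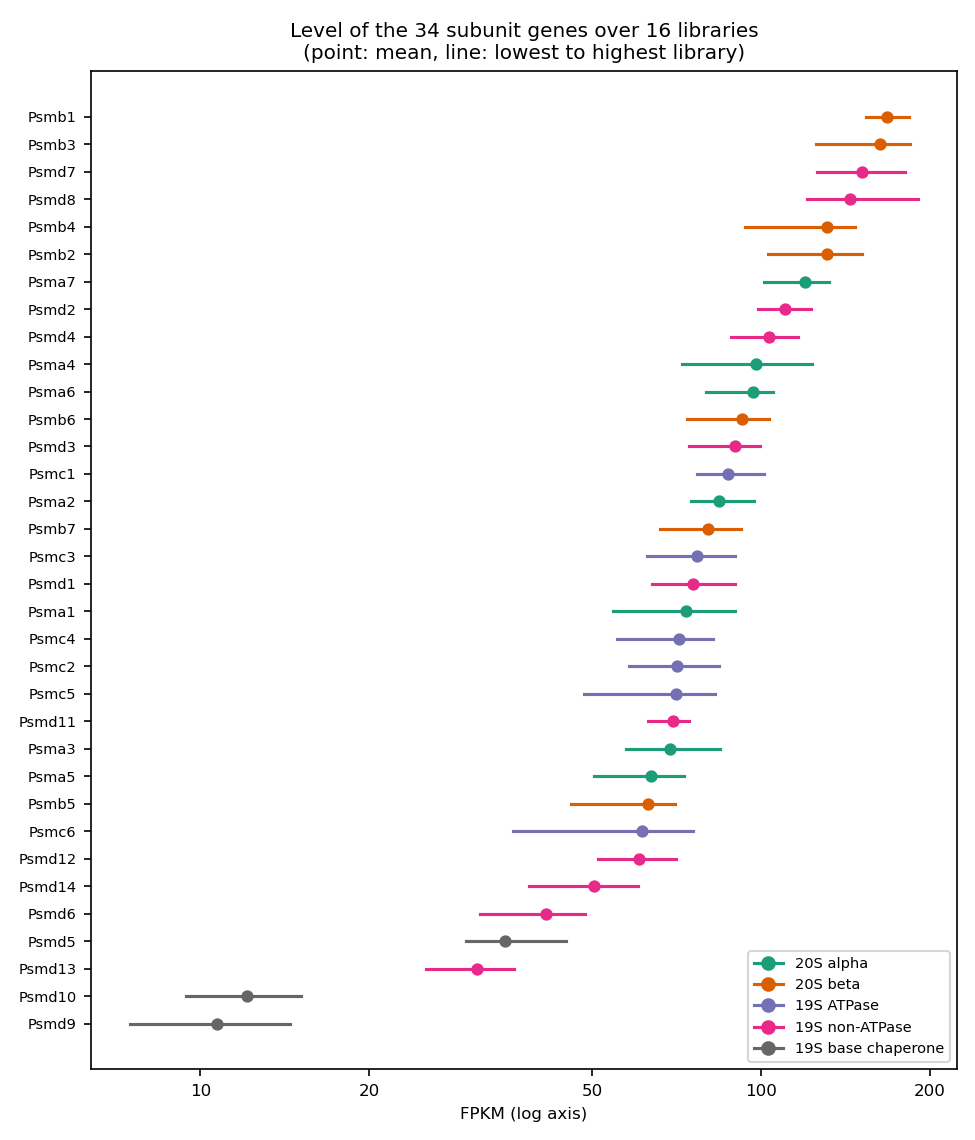
Mean level of each of the 34 genes over the 16 libraries in FPKM on a log axis (points), with a line from the lowest to the highest library and a colour for each subcomplex. Psmb1 stands highest at 168 FPKM, and the assembly chaperones Psmd10 and Psmd9 stand lowest at 12.1 and 10.7 FPKM, while the lines of most genes are short beside the distance between genes.

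Across the 16 libraries most members stayed within a narrow range. In 33 of the 34 the highest library was less than 2 times the lowest, with a median ratio of 1.45. Psmd11, a subunit of the 19S lid, varied least, between 62.7 and 74.4 FPKM (1.19-fold), and Psmc6 most, between 36.1 and 75.5 FPKM (2.09-fold). Between the 4 group means the median member differed by 1.13-fold from the lowest to the highest, with 1.02-fold for Psmb1 and 1.42-fold for Psmc6 as the extremes. The SD within groups had a median of 0.14 on the log2 scale over the members. It was 0.18 over all tested genes and 0.17 over the 6193 tested genes in the members' range of mean level.

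Members varied together from library to library. The median Pearson correlation between 2 members over the 16 libraries was 0.423 across 561 pairs, of which 444 were above 0, and the median within groups was 0.447. With the mean of the remaining members, 25 of the 34 correlated above 0.5, led by Psmb3 at 0.868. Some genes outside the members followed the mean of all 34 more closely than that, up to 0.954 for Polr3e. The median correlation with this mean was 0.189 over the other tested genes. No median over pairs of other genes was computed, so the pairwise value is not shown to be particular to the members. The libraries share a scaling to their own total, so these coefficients describe the libraries and carry no test. Anti-PDL1 library 4 held the lowest value of 19 of the 34 members and exercise library 2 that of 7. Control library 1 held the highest value of 9 members and anti-PDL1 library 1 that of 7. Both extremes of the set thus included libraries of the anti-PDL1 group. The same counts were not made over all tested genes, so they are not shown to be particular to the members. Anti-PDL1 library 4 also had the highest summed FPKM of the 16 libraries, 529732, and exercise library 2 the lowest, 478672. The part of these sums in the counts was not tested. The members made up 0.55% to 0.577% of the summed FPKM in the combination, 0.481% to 0.614% in anti-PDL1, 0.554% to 0.604% in exercise and 0.567% to 0.621% in control libraries. The markers of cycling cells, 6 genes of which all were tested, summed to 173 FPKM in anti-PDL1 library 4, the lowest of the 16, and to 378 FPKM in control library 1, the highest. In anti-PDL1 library 1 and exercise library 2, at opposite ends of the members' levels, they summed to 213 and 214 FPKM. Their part in the members' levels was not tested.

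Some members went the other way. Psmd8, a lid subunit, correlated at -0.38 with the other members, Psmb1 at -0.19 and Psmd4, a ubiquitin receptor, at -0.17. Within groups the coefficients were -0.29 for Psmd8, -0.15 for Psmb1 and 0.07 for Psmd4, so that of Psmd4 did not stay negative. Psmd8 had 149, 180, 130 and 128 FPKM in the combination libraries 1 to 4, 144, 141, 165 and 190 FPKM in anti-PDL1, 135, 121, 144 and 132 FPKM in exercise, and 144, 145, 122 and 140 FPKM in control libraries. Its highest value and that of Psmb1, 184 FPKM, lay in anti-PDL1 library 4, where most members were lowest.

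Summed within their subcomplex, the members gave ranges that overlapped between all 4 groups. The alpha subunits summed to 584 to 650.1 FPKM in the combination, 539.5 to 659 FPKM in anti-PDL1, 529 to 630.5 FPKM in exercise and 581 to 677 FPKM in control libraries. The beta subunits summed to 785.5 to 864 FPKM in the combination, 691 to 897 FPKM in anti-PDL1, 808 to 905 FPKM in exercise and 803 to 887 FPKM in control libraries. The lowest and the next to highest of these beta sums were both in the anti-PDL1 group. The ATPases summed to 433 to 451 FPKM in the combination, 373 to 450.4 FPKM in anti-PDL1, 406 to 459 FPKM in exercise and 422 to 488 FPKM in control libraries. The non-ATPase subunits summed to 904 to 983 FPKM in the combination, 883 to 961 FPKM in anti-PDL1, 864 to 958 FPKM in exercise and 891.5 to 979 FPKM in control libraries. The 3 assembly chaperones reached their highest sum, 69.4 FPKM, in anti-PDL1 library 1. Of these, Psmd5 had 36.8, 35.7, 33.9 and 34.2 FPKM in the combination, 44.8, 40.5, 34.1 and 34.6 FPKM in anti-PDL1, 31.4, 30.7, 32.0 and 30.0 FPKM in exercise, and 37.5, 29.8, 37.4 and 35.0 FPKM in control libraries. Its exercise libraries were low and close together, with control library 2 the one library below them.

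Anti-PDL1 against control addressed the effect of the antibody alone. No member passed the threshold of an adjusted p of 0.05 in the limma fit over all tested genes, where 30 of 11868 genes, or 0.253%, passed. Most members had fold changes slightly below 0. The median log2 fold change over the 34 was -0.13, with 28 below 0, beside -0.04 and 57.7% below 0 over all genes. The ATPases had the lowest median of the subcomplexes, at -0.20, followed by the alpha subunits at -0.14, the beta subunits at -0.13 and the non-ATPase subunits at -0.12. At an unadjusted p below 0.05, 5 members were lower, namely Psmb5, Psmc3, Psmc4, Psmc5 and Psmd14 (14.7%, beside 15.7% of all genes), and 0 were higher (7.77% of all genes). The share of lower members was near that of all genes. Libraries of the 2 groups did not overlap for 1 member on the lower side, Psmb5 (7.26% of all genes), and for 0 on the higher side (3.57% of all genes). All 34 intervals at 95% lay within 1 on either side of 0 on the log2 scale, and 32 lay within 0.5. In bulk tumours fewer cells of a type and less RNA per cell cannot be told apart.

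Psmc5, an ATPase of the 19S base, had the largest negative fold change in this comparison. It had 72.8, 69.6, 57.5 and 48.4 FPKM in the anti-PDL1 libraries 1 to 4, against 82.1, 82.9, 80.6 and 68.5 FPKM in control libraries. It had 67.2, 67.8, 71.9 and 74.7 FPKM in the combination, and 74.4, 70.1, 65.3 and 75.2 FPKM in exercise libraries. Anti-PDL1 libraries 3 and 4 lay below every library of the other groups, while libraries 1 and 2 overlapped with them. The log2 fold change of Psmc5 against control was -0.35 ± 0.11 (SE, limma adjusted p = 0.103). For the ATPase Psmc3, the anti-PDL1 libraries held 72.6, 67.5, 71.9 and 62.6 FPKM, against 89.8, 88.8, 78.6 and 69.5 FPKM in control libraries. Its exercise libraries held 87.3, 81.5, 73.8 and 79.5 FPKM. Control library 4 lay among the anti-PDL1 libraries and the other 3 above them. The log2 fold change was -0.24 ± 0.09 (SE, limma adjusted p = 0.126). The ATPase Psmc4 had 70.8, 69.8, 65.7 and 55.3 FPKM in anti-PDL1 libraries, against 77.9, 78.2, 82.3 and 67.1 FPKM in control libraries. It had 67.2, 70.2, 68.4 and 75.4 FPKM in the combination, and 75.5, 70.5, 74.0 and 75.8 FPKM in exercise libraries. Again control library 4 was the one that overlapped, and the log2 fold change was -0.22 ± 0.09 (SE, limma adjusted p = 0.147). Without control library 4, Psmc3 and Psmc5 passed the threshold, in a fit that called 768 of all genes.

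The median of the members depended on single libraries. It was -0.06 without anti-PDL1 library 4, -0.20 without anti-PDL1 library 1 and -0.04 without controls 1 and 2, of which control 2 carried 292 FPKM of skeletal muscle markers, beside 1.95 to 12 FPKM in the other libraries. It was -0.08 both with the libraries centred on their medians and with quantile normalization. Controls 1 and 2 had the highest means of the members on the log2 scale among the 16 libraries, 6.322 and 6.317. Leaving both out therefore lowers the control level of the members by itself. Of the genes tested in the marker lists of other cells, Nkg7 alone passed the threshold in anti-PDL1 against control. The T and NK cell markers summed to 16.8 to 46.6 FPKM in anti-PDL1, against 4.58 to 9.8 FPKM in control libraries. These sums cover the 10 of 11 markers that were found, of which 4 were tested. Gzmb averaged 11.8 FPKM in anti-PDL1 and 2.53 FPKM in control libraries, and Prf1 averaged 9.1 and 1.58 FPKM. In the same groups Cd4 averaged 0.465 and 0.468 FPKM and Cd3d 0.61 and 0.535 FPKM, with Cd3e no higher than 1.0 FPKM in any library. Macrophage and monocyte markers, 10 of 10 tested, summed to 358 to 755 FPKM in anti-PDL1, against 470 to 1911 FPKM in control libraries. Markers of cycling cells summed to 173 to 213 FPKM in anti-PDL1, against 247 to 378 FPKM in control libraries, without overlap. Their part in the members' values was not tested. Of the 4 carcinoma epithelium markers, Epcam, Krt8 and Krt18 stayed at or below 0.2 FPKM in all 16 libraries. The other one, Krt19, had 0.04 to 0.45 FPKM in the combination, 0.17 to 1.16 FPKM in anti-PDL1, 0.06 to 0.17 FPKM in exercise and 0.07 to 4.87 FPKM in control libraries, with its 2 highest values, 3.54 and 4.87 FPKM, in controls 1 and 2. The carcinoma label of the line was thus not borne out by Epcam, Krt8 and Krt18. Krt19 exceeded 1.16 FPKM only in controls 1 and 2, so it did not bear the label out across the groups either. Low RNA of these 4 markers does not by itself test the label.

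**Figure D2:**
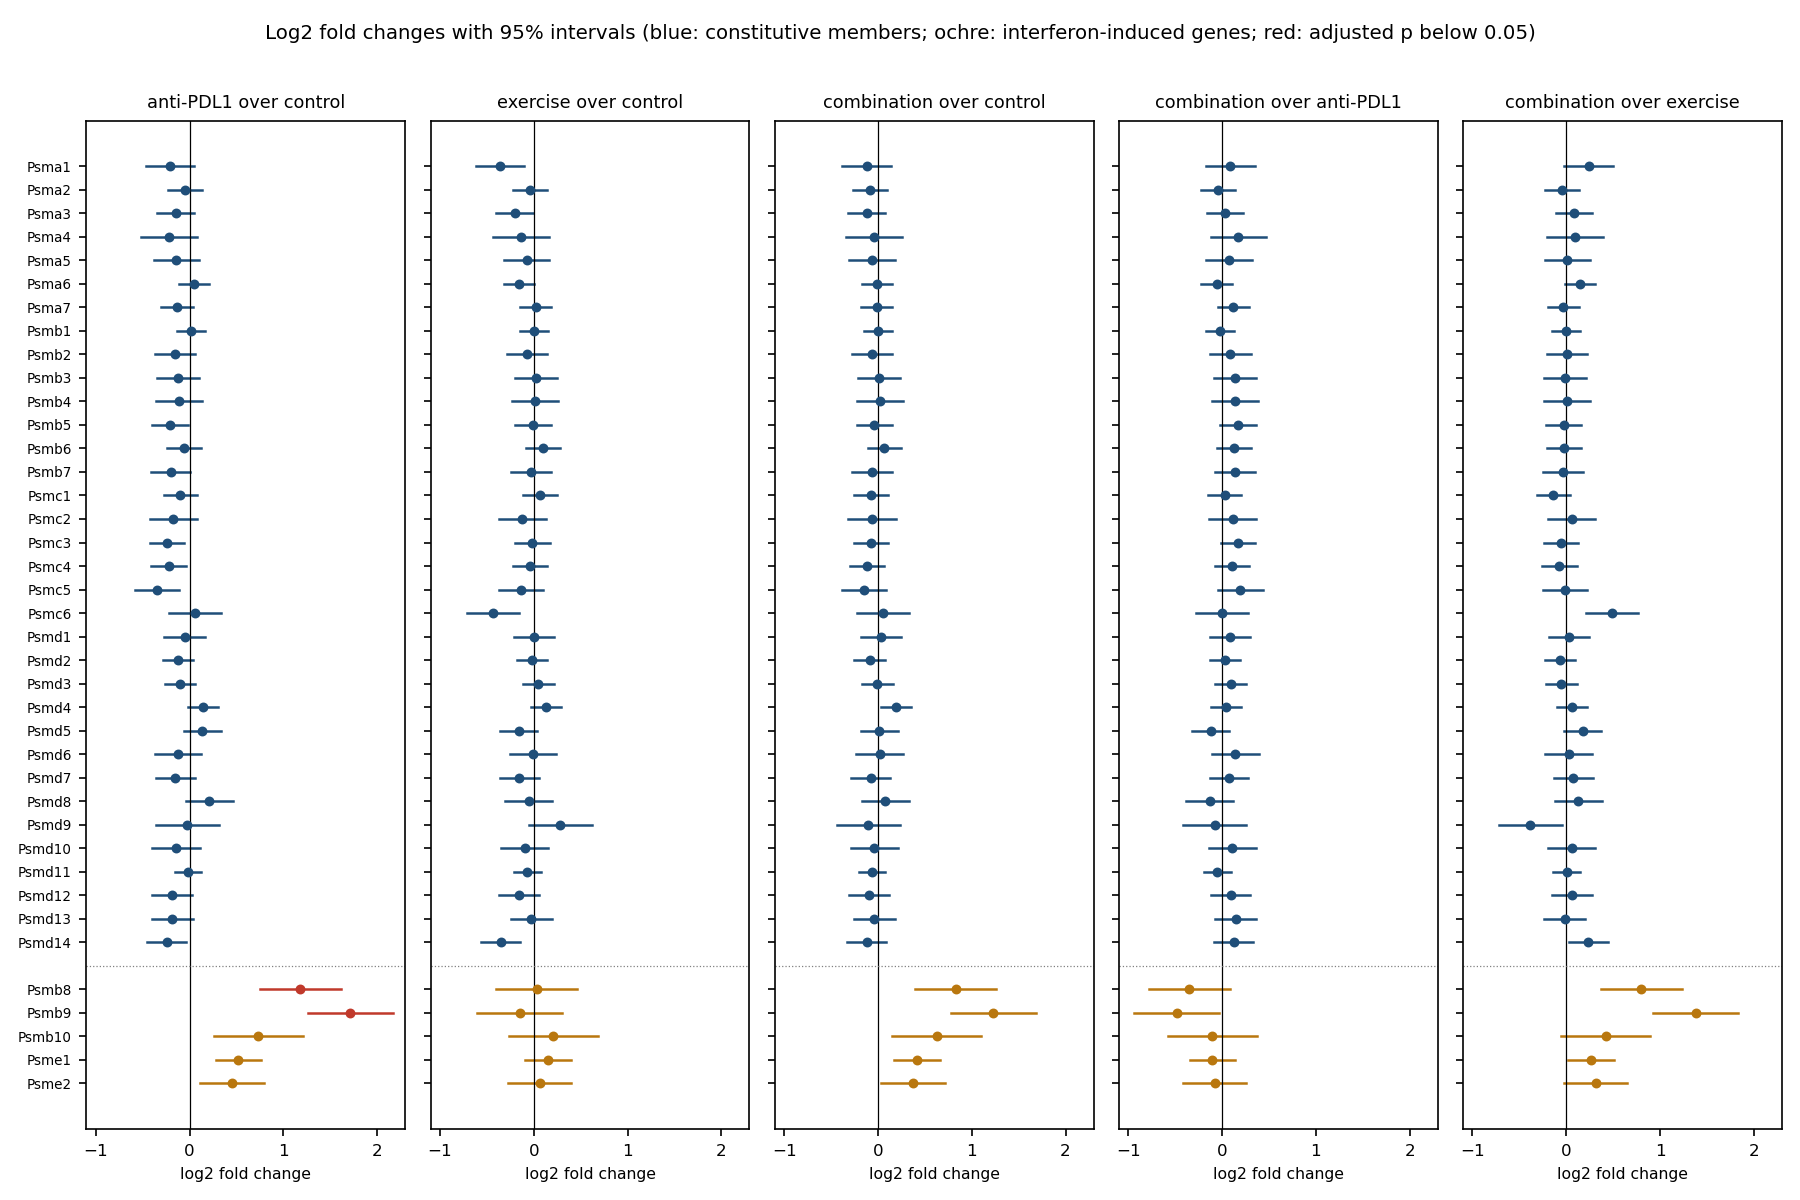
Log2 fold changes with 95% intervals from the limma fit for the 34 members (blue) and 5 interferon-induced genes (ochre, red where the adjusted p was below 0.05), in 5 comparisons with the group named first over the other. The member intervals all lie between -1 and 1, whereas Psmb9 at 1.71 and Psmb8 at 1.18 stand out in anti-PDL1 over control.

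Exercise against control addressed the effect of exercise alone. No member passed the threshold, and neither did any other gene (0 of 11868, 0%). The median log2 fold change over the members was -0.04, with 24 below 0, beside -0.02 and 53.8% below 0 over all genes. It turned to 0.02 without controls 1 and 2 and was -0.01 without control 2 alone. The alpha subunits had a median of -0.14, with 6 of 7 below 0, while the beta subunits had one of 0.01. At an unadjusted p below 0.05, 4 members were lower, namely Psma1, Psma3, Psmc6 and Psmd14 (11.8%, beside 9.93% of all genes), and 0 were higher (8.03% of all genes). Groups did not overlap for 2 members on the lower side, Psmc6 and Psmd14 (5.88%, beside 3.51% of all genes), and for 0 on the higher side (4.21% of all genes).

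Psmc6, the ATPase whose level varied most, had 54.4, 36.1, 49.1 and 50.6 FPKM in the exercise libraries 1 to 4, against 61.2, 60.3, 62.5 and 72.3 FPKM in control libraries. It had 65.4, 70.2, 68.6 and 62.2 FPKM in the combination, and 71.5, 75.5, 51.1 and 71.4 FPKM in anti-PDL1 libraries. The exercise libraries were the low ones, and of the other 12 libraries only anti-PDL1 library 3 reached into their range. The log2 fold change against control was -0.43 ± 0.13 (SE, limma adjusted p = 0.181). Psmd14, the deubiquitinase that removes ubiquitin from the substrate, had 52.0, 38.6, 41.9 and 45.2 FPKM in exercise, against 60.4, 57.4, 56.3 and 52.8 FPKM in control libraries. It had 50.8, 53.2, 51.4 and 53.2 FPKM in the combination, and 55.2, 51.1, 42.5 and 43.5 FPKM in anti-PDL1 libraries. Its exercise libraries lay below all control libraries, though library 1 only narrowly. The log2 fold change against control was -0.35 ± 0.10 (SE, limma adjusted p = 0.181). For Psma1, an alpha subunit of the gate, the exercise libraries held 82.6, 54.5, 57.1 and 64.4 FPKM, against 89.97, 82.9, 76.7 and 79.0 FPKM in control libraries. Its values were 74.9, 74.0, 73.9 and 78.8 FPKM in the combination, and 82.8, 77.3, 59.8 and 65.9 FPKM in anti-PDL1 libraries. Exercise library 1 lay among the controls and the other 3 below them, and the log2 fold change was -0.36 ± 0.12 (SE, limma adjusted p = 0.188). Without exercise library 1, Psma1, Psmc6 and Psmd14 passed the threshold, in a fit that called 611 of all genes. Markers of cycling cells summed to 374 FPKM in exercise library 1 and to 190 to 234 FPKM in the other exercise libraries, against 247 to 378 FPKM in control libraries. Their part in this difference was not tested.

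**Figure D3:**
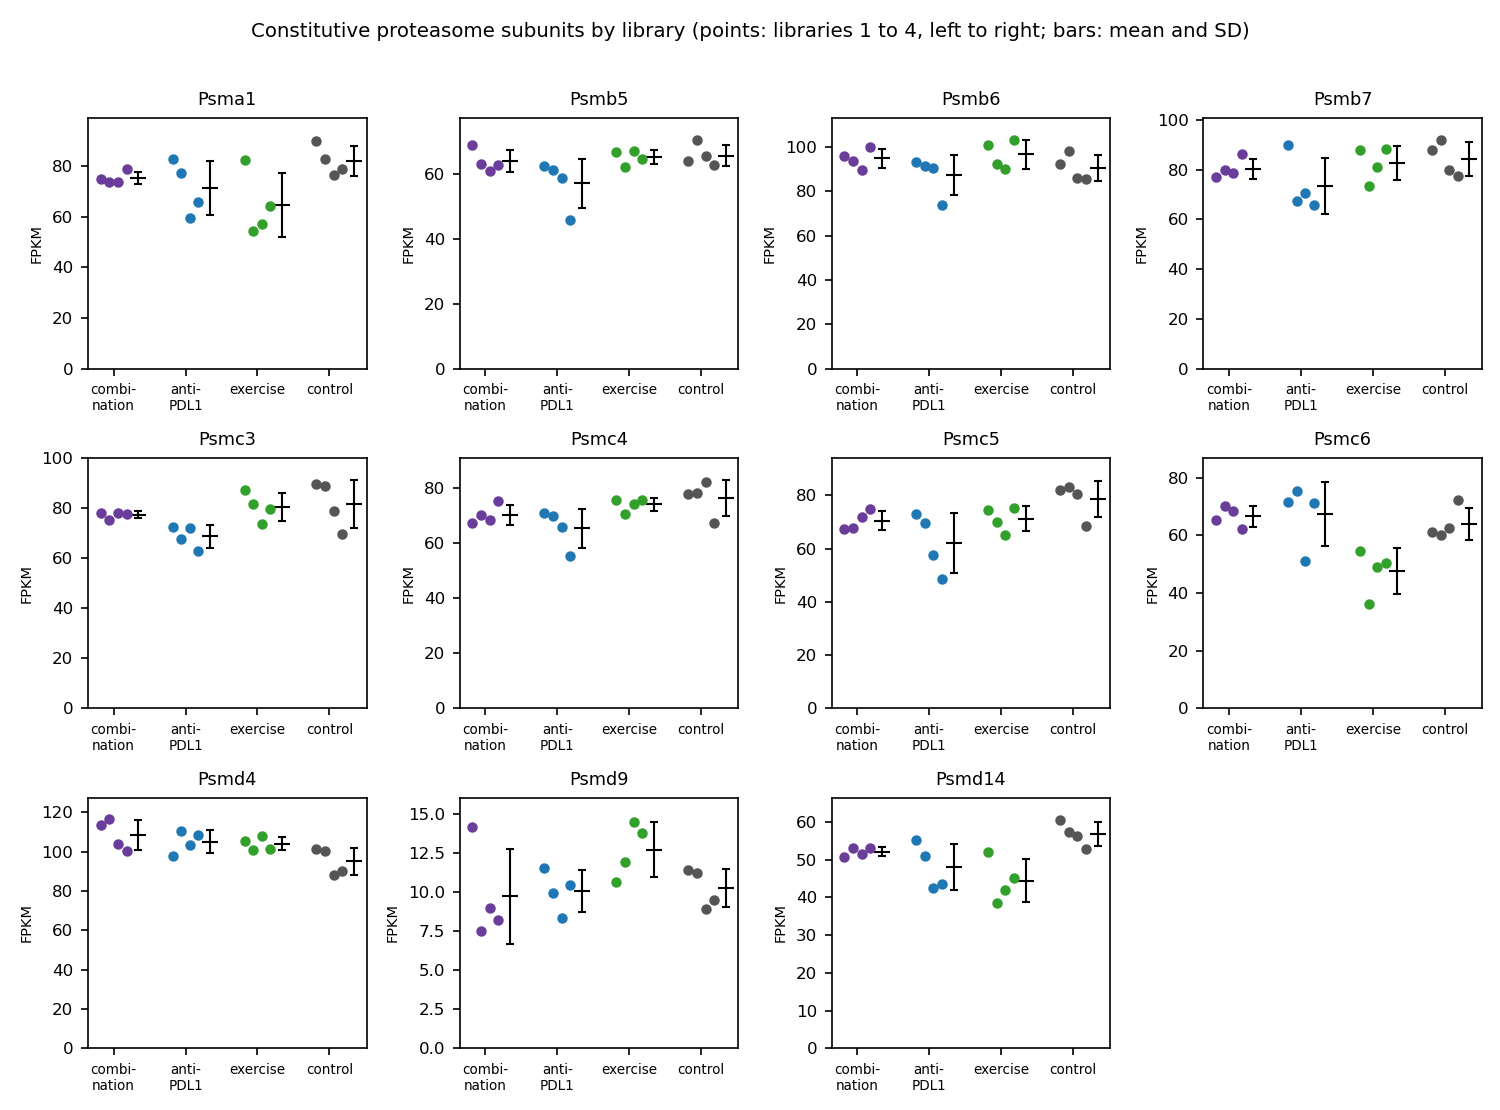
FPKM of 11 members in each library (points, libraries 1 to 4 from left to right) with the mean and SD of the 4 libraries beside them, for the combination, anti-PDL1, exercise and control. The exercise libraries of Psmc6 lie between 36.1 and 54.4 FPKM, below the control libraries, whereas for most members the 4 groups overlap.

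In the combination against control no member passed the threshold, and no gene did (0%). The median over the members was -0.05, with 24 below 0, beside -0.03 and 58.1% below 0 over all genes. It turned to 0.02 without controls 1 and 2 and was -0.02 without control 1 alone. At an unadjusted p below 0.05, 1 member was higher, Psmd4 (2.94%, beside 3.01% of all genes), and 0 were lower (5.19% of all genes). No member was without overlap in either direction (1.46% of all genes higher and 2.37% lower). Psmd4 had 114, 117, 104 and 100 FPKM in the combination, against 101, 100, 88.2 and 90.2 FPKM in control libraries. It had 98.0, 111, 103 and 109 FPKM in anti-PDL1, and 106, 101, 108 and 102 FPKM in exercise libraries. Controls 3 and 4 were the low libraries, and the log2 fold change of the combination against control was 0.19 ± 0.08 (SE, limma adjusted p = 0.6). The members varied little between the combination libraries, with a median SD of 0.07 on the log2 scale, beside 0.18 in anti-PDL1, 0.10 in exercise and 0.12 in control libraries. Over all tested genes these medians were 0.17, 0.19, 0.16 and 0.16. For 17 of the 34 members the combination had the smallest SD of the 4 groups, and for 19 anti-PDL1 had the largest. The shares of all tested genes for these 2 counts were not computed, and anti-PDL1 had the largest median SD over all genes too. Psmc3 had 77.95, 75.2, 78.2 and 77.7 FPKM in the combination, with an SD of 1.37, against an SD of 9.57 in control libraries. All 34 intervals lay within 0.5 on either side of 0. The comparisons of the combination, anti-PDL1 and exercise with control share the 4 control libraries.

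In the combination against anti-PDL1, which addressed what exercise added to the antibody, no member and no gene passed the threshold (0%). The median over the members was 0.09, with 26 above and 8 below 0, beside 0.02 and 44.8% below 0 over all genes. No member had an unadjusted p below 0.05 in either direction (2.25% of all genes higher and 1.69% lower). Groups did not overlap for 1 member on the higher side, Psmc3 (2.94%, beside 1.4% of all genes), and for 0 on the lower side (0.843% of all genes). For Psmc3 the lowest combination library, at 75.2 FPKM, lay above the highest anti-PDL1 library, at 72.6 FPKM, and the log2 fold change was 0.17 ± 0.09 (SE, limma adjusted p = 0.968). Without anti-PDL1 library 4 the median over the members was 0.03, and without anti-PDL1 library 1 it was 0.15.

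In the combination against exercise, which addressed what the antibody added to exercise, again no member and no gene passed (0%). The median over the members was 0.01, with 19 above and 15 below 0, beside -0.02 and 53.9% below 0 over all genes. The members' median turned to -0.01 without exercise library 2. At an unadjusted p below 0.05, Psmc6 and Psmd14 were higher (5.88%, beside 6.7% of all genes) and Psmd9 was lower (2.94%, beside 6.93% of all genes). Groups did not overlap for 2 members on the higher side, Psmc6 and Psmd5 (5.88%, beside 3.21% of all genes), and for 0 on the lower side (3.73% of all genes). The log2 fold change of Psmc6 was 0.49 ± 0.13 (SE, limma adjusted p = 0.199), with every combination library above every exercise library. That of Psmd14 was 0.23 ± 0.10 (SE, limma adjusted p = 0.313). Psmd9, an assembly chaperone, had 14.2, 7.5, 8.98 and 8.25 FPKM in the combination, against 10.7, 11.9, 14.5 and 13.8 FPKM in exercise libraries. It had 11.6, 9.96, 8.32 and 10.5 FPKM in anti-PDL1, and 11.4, 11.2, 8.94 and 9.47 FPKM in control libraries. Combination library 1 lay among the exercise libraries and the other 3 below them, and the log2 fold change was -0.38 ± 0.16 (SE, limma adjusted p = 0.31).

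The interaction, the difference in the effect of exercise with and without the antibody, was positive for most members but passed the threshold for none, and for no gene (0%). Its median was 0.15 over the members, with 28 above and 6 below 0, beside 0.04 and 45.1% below 0 over all genes. It was 0.07 without anti-PDL1 library 4, 0.21 without anti-PDL1 library 1 and 0.08 without controls 1 and 2. At an unadjusted p below 0.05 it was positive for Psma1, Psmc6 and Psmd14 (8.82%, beside 7.99% of all genes) and negative for 0 members (5.11% of all genes). For Psmd14 it was 0.48 ± 0.14 (SE, limma adjusted p = 0.364), for Psma1 0.45 ± 0.17 (SE, limma adjusted p = 0.366), and for Psmc6 0.43 ± 0.18 (SE, limma adjusted p = 0.37). Without exercise library 1, Psmd14 passed the threshold, in a fit that called 223 of all genes. The interval of the interaction lay within 0.5 of 0 for 22 of the 34 members. Its error is larger than that of the pairwise differences, at most 0.23. The distance of the estimates from 0, mostly upward, enters this count as well.

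The catalytic subunits were set against the interferon-induced subunits that replace them. Psmb5, with the chymotrypsin-like activity, had 68.9, 63.2, 61.0 and 62.8 FPKM in the combination, 62.5, 61.1, 58.8 and 45.9 FPKM in anti-PDL1, 66.9, 62.2, 67.0 and 64.7 FPKM in exercise, and 64.1, 70.4, 65.6 and 62.6 FPKM in control libraries. Every anti-PDL1 library lay below every control library, the closest values being 62.5 and 62.6 FPKM, and anti-PDL1 library 4 lay well below the rest. The log2 fold change of anti-PDL1 against control was -0.21 ± 0.09 (SE, limma adjusted p = 0.175). Psmb6, with the caspase-like activity, had 96.0, 93.9, 89.8 and 100.1 FPKM in the combination, 93.4, 91.4, 90.4 and 73.9 FPKM in anti-PDL1, 101, 92.3, 90.1 and 103 FPKM in exercise, and 92.1, 98.4, 86.0 and 85.6 FPKM in control libraries. Apart from anti-PDL1 library 4 the groups overlapped, and the log2 fold change of anti-PDL1 against control was -0.06 ± 0.09 (SE, limma adjusted p = 0.727). Psmb7, with the trypsin-like activity, had 77.1, 79.9, 78.7 and 86.2 FPKM in the combination, 90.1, 67.6, 70.6 and 66.0 FPKM in anti-PDL1, 87.8, 73.7, 81.0 and 88.2 FPKM in exercise, and 88.0, 92.0, 79.9 and 77.6 FPKM in control libraries. Anti-PDL1 libraries 2 to 4 were the lowest of the 16 and anti-PDL1 library 1 was among the highest, and the log2 fold change against control was -0.20 ± 0.10 (SE, limma adjusted p = 0.228).

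The interferon-induced partners behaved differently. Psmb9, which replaces Psmb6, had 52.1, 46.0, 32.7 and 47.4 FPKM in the combination, 84.8, 52.8, 53.4 and 61.3 FPKM in anti-PDL1, 14.99, 13.7, 23.8 and 14.3 FPKM in exercise, and 26.6, 14.1, 16.1 and 18.1 FPKM in control libraries. It rose in anti-PDL1 against control by 1.71 ± 0.21 on the log2 scale (SE, limma adjusted p = 0.002), a call that held in all 27 alternative fits. Psmb8, which replaces Psmb5, had 82.8, 53.9, 47.6 and 71.1 FPKM in the combination, 113, 74.7, 65.7 and 72.6 FPKM in anti-PDL1, 27.0, 34.6, 43.2 and 39.1 FPKM in exercise, and 43.7, 27.6, 32.2 and 36.8 FPKM in control libraries. All libraries given the antibody, in either group, lay above all those without it for both genes. Psmb8 rose by 1.18 ± 0.20 in anti-PDL1 against control (SE, limma adjusted p = 0.0328), a call that held in 20 of 27 alternative fits and was lost in 5 fits without single libraries of these 2 groups, without controls 1 and 2 and with no filter on low values. Psmb10, which replaces Psmb7, did not pass the threshold (log2 fold change 0.73 ± 0.22 SE, limma adjusted p = 0.0965), nor did the activator genes Psme1 (0.52 ± 0.11 SE, adjusted p = 0.0559) and Psme2 (0.45 ± 0.16 SE, adjusted p = 0.122). In the combination against control the log2 fold changes were 1.23 for Psmb9 (limma adjusted p = 0.245) and 0.83 for Psmb8 (limma adjusted p = 0.559), and none of the 5 genes passed. In exercise against control they were -0.15 for Psmb9 and 0.03 for Psmb8, with adjusted p-values of 0.724 and 0.947.

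Within a library the ratio of an induced to its constitutive subunit is free of the scaling between libraries. These ratios were chosen after the values were seen, with the rise of Psmb8 and Psmb9 known. The 15 comparisons were tested by two-sided exact permutation tests of the log2 ratios. With 4 libraries a group no p below 0.0286 can arise, a value that becomes 0.0429 after adjustment here. Any 2 groups without overlap reach this lowest value, so an adjusted p of 0.0429 restates the lack of overlap and adds no support. The ratio of Psmb9 to Psmb6 averaged 0.468 ± 0.0748 in the combination, 0.727 ± 0.168 in anti-PDL1, 0.175 ± 0.0599 in exercise and 0.207 ± 0.061 in control libraries (SD, n = 4 each). Anti-PDL1 stood 3.55-fold above control and the combination 2.31-fold above control and 2.75-fold above exercise, each without overlap (exact permutation, adjusted p = 0.0429). The combination stood at 0.65 times anti-PDL1, also without overlap (exact permutation, adjusted p = 0.0429). For the other 2 ratios the combination and anti-PDL1 overlapped, at 0.693 times anti-PDL1 for Psmb8 to Psmb5 (exact permutation, adjusted p = 0.117) and 0.844 times for Psmb10 to Psmb7 (exact permutation, adjusted p = 0.398). The ratio of Psmb8 to Psmb5 averaged 0.992 ± 0.206 in the combination, 1.43 ± 0.322 in anti-PDL1, 0.552 ± 0.105 in exercise and 0.538 ± 0.125 in control libraries (SD, n = 4 each). It stood 2.67-fold higher in anti-PDL1 than in control, 1.85-fold higher in the combination than in control and 1.79-fold higher in the combination than in exercise, each without overlap (exact permutation, adjusted p = 0.0429). The ratio of Psmb10 to Psmb7 averaged 0.503 ± 0.102 in the combination, 0.605 ± 0.168 in anti-PDL1, 0.362 ± 0.0589 in exercise and 0.304 ± 0.0407 in control libraries (SD, n = 4 each), with folds of 1.95, 1.64 and 1.38 in the same 3 comparisons, each without overlap (exact permutation, adjusted p = 0.0429). Exercise against control gave no such separation for any of the 3 ratios, with adjusted p-values of 0.857 for Psmb8 to Psmb5, 0.398 for Psmb9 to Psmb6 and 0.25 for Psmb10 to Psmb7 (exact permutation).

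The induced subunits together made up 32.9% to 42.9% of the summed FPKM of the 6 catalytic genes in the combination, 41.3% to 52.4% in anti-PDL1, 20.5% to 29.3% in exercise and 19.9% to 29.0% in control libraries. The summed FPKM of the 3 constitutive ones lay between 229.5 and 249 in the combination, 186 and 246 in anti-PDL1, 228 and 256 in exercise, and 226 and 261 in control libraries, so the groups overlapped. The summed FPKM of the induced ones lay between 112 and 181.5 in the combination, 154 and 271 in anti-PDL1, 66.1 and 98.7 in exercise, and 64.7 and 99.7 in control libraries. The T and NK cell markers summed to 10.4 to 28.8 FPKM in the combination, 16.8 to 46.6 FPKM in anti-PDL1, 9.39 to 16.2 FPKM in exercise and 4.58 to 9.8 FPKM in control libraries, and their part in the ratios was not tested.

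**Figure D4:**
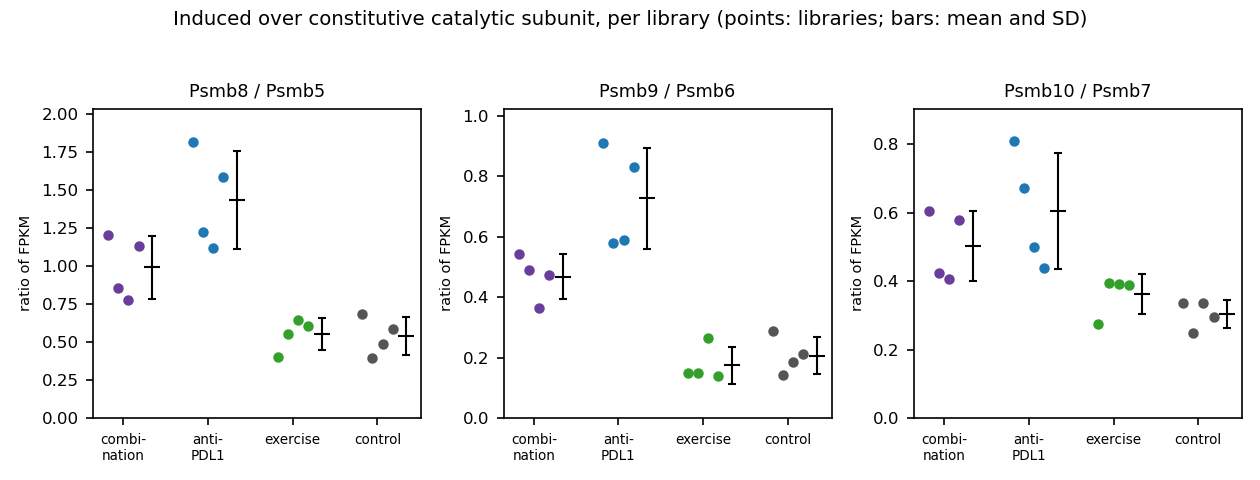
Ratio of the FPKM of each interferon-induced catalytic subunit to that of the constitutive subunit it replaces, in each library (points), with the mean and SD of 4 libraries, for the combination, anti-PDL1, exercise and control. For Psmb9 to Psmb6 the means are 0.468, 0.727, 0.175 and 0.207 in that order, and every library with the antibody lies above every library without it.

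The other genes of the pathway were taken from 6 lists, of assembly chaperones, further 19S subunits, activators, shuttle proteins, regulators and ubiquitin genes. Of these, 36 were tested and 0 passed the threshold of the limma fit in any comparison. At an unadjusted p below 0.05, 5 were higher and 5 lower in anti-PDL1 against control (27.8%, beside 23.5% of all genes in either direction). In exercise against control 2 were higher and 5 lower (19.4%, beside 17.96% of all genes), and in the combination against control 2 were higher and 2 lower (11.1%, beside 8.2% of all genes). In either direction there was 1 in the combination against anti-PDL1 (2.78%, beside 3.94% of all genes), 7 in the combination against exercise (19.4%, beside 13.6%) and 5 in the interaction (13.9%, beside 13.1%). Most of these shares were near those of all genes. In anti-PDL1 against control, the 8 regulators of proteasome genes had a median log2 fold change of 0.07 and the 5 tested assembly chaperones one of -0.11. Nfe2l1, which encodes NRF1, the factor that switches on proteasome genes when the proteasome is inhibited, had a log2 fold change of 0.41 ± 0.13 (SE, limma adjusted p = 0.104). Sqstm1, a receptor for ubiquitin-tagged cargo, had one of 0.52 ± 0.16 (adjusted p = 0.101). Negative values came from Psmg1, a chaperone of the alpha ring, with -0.37 ± 0.12 (adjusted p = 0.11), Sem1, a small lid subunit, with -0.33 ± 0.13 (adjusted p = 0.158), and Vcp, the segregase that passes substrates on to the proteasome, with -0.23 ± 0.08 (adjusted p = 0.128). Psma8 and Paaf1 were not tested.

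The 10 tested genes outside these lists whose log2 levels followed the mean of the members most closely over the 16 libraries were Polr3e, Dcun1d5, Ranbp1, Hmgn3, Mapk12, Polr2l, Tomm5, Prelid3b, Cpsf2 and Dnajc7. Their Pearson correlations ran from 0.954 for Polr3e to 0.872 for Dnajc7, beside a median of 0.189 over the other tested genes. All libraries share their own scaling and cell mixture, and the genes were picked for this likeness, so no test is given. In anti-PDL1 against control their log2 fold changes ran from -0.50 for Ranbp1 (limma adjusted p = 0.1) to -0.16 for Tomm5 (adjusted p = 0.429), all below 0, and none passed the threshold. The mean they were picked to follow was itself lower in anti-PDL1, at 6.151, than in control, at 6.256. Their shared direction is therefore no separate result.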

How the data were processed

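RNA was measured in 16 libraries, grouped by their titles. FPKM with 2 decimals were deposited by the authors. Per the submitters' processing notes, HISAT and Bowtie2 were used with the build GRCm38.p6, in roles not given. Per the labels' protocols, Trizol was used for extraction. The sources used here give neither the library kit nor the strand handling, the annotation or the program behind the FPKM values. Low values were checked for steps of whole reads: in 1353 genes, 33.2% of 21365 values fell within 0.15 of an integer multiple of the gene's lowest value. Reads were thus not recovered, and with the depth unknown no counting interval can be had. A library's FPKM added up to 478672 to 529732, with 11293 to 11873 genes at 1 FPKM or more. No libraries were identical (across-gene correlation within groups 0.977 to 0.995).

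Of the test forms laid down for counts and for normalized values, the second applied. Values were taken as log2(FPKM + 1), which understates changes of low genes. A gene needed 1 FPKM in 4 libraries or more, and the 11868 that had it, all 34 members included, entered one limma 3.58.1 model (R 4.3.3, trend and robust settings) with group as its only term. The Benjamini-Hochberg adjustment ran over all tested genes of a contrast, with a threshold of 0.05. The scripts were tested on simulated data. Ratios were tested with scipy 1.17.1.

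The members, lists and tests were chosen with earlier results of these data known. Values in every library are given for the 3 catalytic subunits, for members past the threshold and for up to 3 members with the smallest p in each comparison. The 5 interferon-induced genes, up to 3 genes of each pathway list with the smallest p in anti-PDL1 against control, and the 10 genes most like the members could be named as well. Psmd5, Psmd8 and the most and least variable members were named after their values were seen. A gene that this rule would name is not reported here.

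Alternatives tried were plain limma settings (no trend, not robust), quantile normalization, centring on library medians, no filter, a filter on means under 5 FPKM, pseudocounts of 0.1 or 0.01, the replicate number as a block, only the groups compared, library weights, leaving out controls 1 and 2, and leaving out each library in turn. Those for the ratios were added after seeing the data. Promoters and coordinates came from RefSeq tables of GRCm38.p6.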

Additional observations from a re-analysis of the deposited data

Results flagged for a closer look

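A library standing apart from the other 3 of its group was looked for with Dixon's criterion at its 95% level, which sets the gap to the nearest library against the range of the group. It was applied to 84 groups of 4 values, of which 6 were marked, and chance marks about 1 in 20. Among the members, anti-PDL1 library 4 had 73.9 FPKM of Psmb6, below the other anti-PDL1 libraries at 90.4 to 93.4 FPKM. Psmc5 had 68.5 FPKM in control library 4, below the other controls at 80.6 to 82.9 FPKM, and this is the library whose removal brought Psmc3 and Psmc5 past the threshold in anti-PDL1 against control. Psmc6 had 51.1 FPKM in anti-PDL1 library 3, below 71.4 to 75.5 FPKM in the rest of its group.

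Outside the members, exercise library 3 had 23.8 FPKM of Psmb9, above the other exercise libraries at 13.7 to 14.99 FPKM. The ratio of Psmb9 to Psmb6 in the same library was 0.264, above 0.138 to 0.148 in the others. The ratio of Psmb10 to Psmb7 was 0.274 in exercise library 1, below 0.388 to 0.395 in the other exercise libraries. The T and NK cell markers summed to 16.2 FPKM in exercise library 3, the highest of the exercise group, and their part in these values was not tested.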

How the results depend on the processing

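The count of 0 members past the threshold held under every alternative in the combination against control and against anti-PDL1. In anti-PDL1 against control it was 1 with library weights (Psmc3) and 0 to 2 when single libraries were left out. In exercise against control it was 5 with library weights (Psma1, Psma3, Psma6, Psmc6 and Psmd14) and 0 to 3 when single libraries were left out. In the combination against exercise it was 1 with library weights (Psmc6), and in the interaction 0 to 1 when single libraries were left out. The cause was not tested. Library weights called 835, 2274 and 222 of all genes in these 3 pairwise comparisons. The members' median in anti-PDL1 against control was -0.04 without controls 1 and 2, and ran from -0.20 to -0.06 when single libraries were left out. Without those 2 controls it was 0.02 in exercise and 0.02 in the combination against control, and when single libraries were left out it ran from -0.07 to -0.01 and from -0.08 to -0.02. Left-out libraries gave 0.03 to 0.15 in the combination against anti-PDL1, -0.01 to 0.04 against exercise and 0.07 to 0.21 in the interaction. No ratio that separated its groups changed direction in its alternatives. With the replicate number as a block 0 members passed in every comparison, and it changed no member's call. Libraries of one number did not deviate together, with correlations of -0.62 to 0.34 over 24 pairs, of which 6 were above 0.1. Depth is unknown, and 4 libraries per group limit what can be called: the largest standard error of a member was 0.16 in the pairwise comparisons and 0.23 in the interaction.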
